A study of Bos taurus with 6 samples.

Results

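The core autophagy machinery was examined in bovine blastocysts as 43 genes, found by symbol, of the 36075 genes in the deposited table. Each of the 43 symbols matched 1 row. The study asked whether melatonin (MT), an antioxidant hormone, given to oocytes during maturation alters the transcriptome of the blastocysts that develop from them. Cumulus–oocyte complexes from slaughterhouse ovaries were matured in vitro for 22 h with 1e-07 mol/L MT (the MT-treated group) or with no MT (the control group), and were then fertilized and cultured alike, without further treatment being described. The 3 libraries of a group were each prepared from 3 whole blastocysts pooled together, so trophectoderm, inner cell mass and hypoblast were measured together. The breed of the ovary donors and the sex of the embryos are not given in the sources used here. Values are TPM, a measure in which read counts are corrected for transcript length and for library size, so levels can be set side by side between genes of a library. Between the groups a TPM value is relative to the rest of its library, and several differences below depended on how the libraries were scaled.

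Macroautophagy encloses cytoplasm, damaged organelles or protein aggregates in a double membrane, the autophagosome, and delivers them to the lysosome. A kinase complex built on ULK1 or ULK2 starts the process, the lipid kinase PIK3C3 with its partners marks the site with the lipid PI3P, and membrane is supplied by ATG9A and the lipid transfer proteins ATG2A and ATG2B. A pair of ubiquitin-like conjugation reactions then attaches the small ATG8 proteins (the LC3 and GABARAP subfamilies) to that membrane, and SNARE proteins fuse the closed vesicle with the lysosome. In early mammalian embryos, autophagy degrades maternally supplied proteins after fertilization. These are transcript levels, which do not measure autophagosomes or flux.

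Of the 43 genes, 36 reached 1 TPM in 3 or more of the 6 libraries and were tested on the log2(TPM + 1) scale. In MT-treated compared with control blastocysts, 24 of the 36 were higher and 10 lower with limma at a threshold of 0.05, adjusted by Benjamini-Hochberg across the whole table of tested genes, while VMP1 and VAMP8 were not called. The background is high, since 95.7% of the 11953 genes tested were called, 61.6% as higher and 34.1% as lower, and a call alone therefore does not set these genes apart. When a 2-fold difference on that scale was also asked for, 20 autophagy genes were higher and 3 lower, where 51.0% of all tested genes were higher and 19.6% lower. Of the 36 genes, 15 passed the filter through the MT-treated libraries alone and so had to differ in the TPM as deposited, and the counts are given as a description. The median log2 fold change was 1.42 over the 36 genes and 1.12 over all tested genes. Among genes above 0 in all 6 libraries it was 0.25 for the autophagy genes and -0.19 for all such genes. The 3 values of one group lay wholly above those of the other for 34 of the 36, against 96.1% of all tested genes. Quantile normalization, by which all libraries come to share 1 distribution of values, also gave 24 higher and 10 lower autophagy genes, but they were not the same genes. At least 2-fold, 12 were then higher and 6 lower. The call moved for 8 of the 36, with ATG101 and BECN1 turning higher, ATG14 and SH3GLB1 turning lower, ATG9A and ATG4A no longer called, and VMP1 and VAMP8 called higher. Among all tested genes the split was 7367 higher and 4071 lower as deposited and 5550 higher and 5311 lower with quantile normalization. The median log2 fold change with quantile normalization was 0.47 over the 36 genes and 0.04 over all tested genes. Centring each library on the median of the genes present in all libraries adds 0.48 to every log2 fold change, and 28 autophagy genes were then higher and 7 lower, as were 8412 and 3038 of all tested genes.

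Many of the differences were between a measured level and a listed 0. Of the 36 autophagy genes that reached 1 TPM in every MT-treated library, 10 were listed at 0 in every control library, against 36.1% of all genes at that level. None of the 21 that reached 1 TPM in every control library was listed at 0 in every MT-treated library, against 5.34% of all such genes. The number of genes above 0 was 8854 to 8953 in the control and 14372 to 14408 in the MT-treated libraries, and the part of that difference in the values of any single gene was not tested. A listed 0 can be a transcript that was absent or one that was not captured or counted, so no fold change is given for these genes. A set of 25 autophagy genes was above 0 in all 6 libraries. Fitted among the 6925 such genes, 13 were higher and 10 lower, where 40.6% of those genes were higher and 52.4% lower. Of the 13, ATG14, SH3GLB1, DAPK1 and ATG2A stayed under 1 TPM in the control. They had passed the filter through the MT-treated libraries alone, so they could only be higher and this comparison is not free of the filter.

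Markers listed from general knowledge were read for the cell types of the pools. The 12 trophectoderm markers summed to 12400 to 12784 TPM in control pools and 11434 to 11827 TPM in MT-treated pools, and the 6 inner cell mass markers to 262 to 267 and 331 to 336 TPM. Most of the trophectoderm sum was keratin transcripts, KRT8 and KRT18. Among these markers, the trophectoderm factor CDX2 and the pluripotency factors NANOG and LIN28A were listed at 0 in every control library, whereas the trophectoderm factor TFAP2A had 31.5 to 38.9 TPM in the control and 0.46 to 0.55 TPM in the MT-treated libraries, and the pluripotency factor SALL4 55.0 to 57.9 and 26.3 to 27.0 TPM. The 6 hypoblast markers summed to 0.20 to 0.44 TPM in control pools and 57.8 to 61.8 TPM in MT-treated pools. Of the 11 cumulus and granulosa markers in the table, 9 were at 0 in every control and 6 in every MT-treated library, and the summed level was 19.9 to 21.4 and 50.3 to 53.0 TPM. That sum was higher through SERPINE2, at 2.21 to 2.64 TPM in the control and 35.1 to 36.9 TPM in the MT-treated libraries, while FSHR, the receptor that defines granulosa cells, had 17.2 to 19.2 and 15.0 to 17.1 TPM. The 12 maternal oocyte markers summed to 0 TPM in each control library and to at most 1.70 TPM in an MT-treated library. The part of these differences in the autophagy values was not tested, and in pooled embryos fewer cells of a type and less RNA per cell cannot be told apart.

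**Figure D1:**
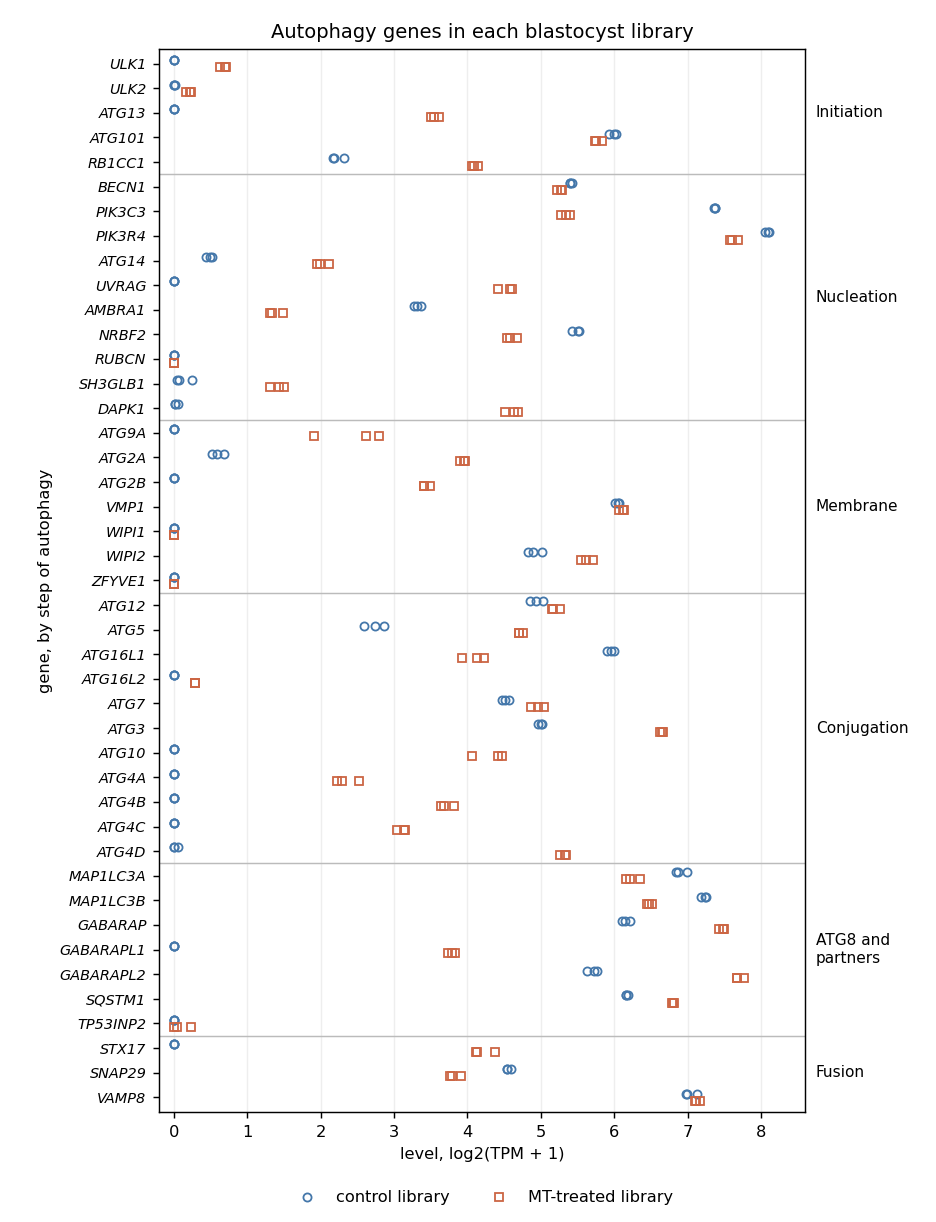
Level of each of the 43 autophagy genes in log2(TPM + 1) on the horizontal axis, with 1 circle for each of the 3 control libraries and 1 square for each of the 3 MT-treated libraries, by step of the pathway. Libraries of a group lie close together, 16 genes sit at 0 in every control library, and 3 genes (RUBCN, WIPI1 and ZFYVE1) sit at 0 in all 6.

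In the ULK complex, 2 of the 3 tested genes were higher, where 61.6% of all tested genes were, one of them (ATG13) having passed the filter through the MT-treated libraries alone, and the kinase genes themselves were close to 0. ULK1, the kinase that receives signals from mTORC1 and AMPK, was listed at 0, 0 and 0 TPM in control pools and 0.62, 0.64 and 0.54 TPM in MT-treated pools. Its paralog ULK2 had 0, 0 and 0.01 TPM in control pools and 0.12, 0.16 and 0.18 TPM in MT-treated pools. Both stayed under 1 TPM throughout and were not tested. ATG13 (ENSBTAG00000017325), the adaptor that joins the kinase to its scaffold, was listed at 0 across the control pools but reached 10.7, 10.4 and 11.2 TPM in MT-treated pools (limma adjusted p = 1.57e-09). RB1CC1 (ENSBTAG00000000878), the large scaffold also called FIP200, had 3.50, 3.99 and 3.55 TPM in control pools and 16.6, 16.1 and 15.8 TPM in MT-treated pools. It was thus higher in each MT-treated library, by 4.39 times in the means (log2 fold change 1.87, standard error 0.05, limma adjusted p = 1.02e-07), and the log2 fold change was 0.50 with quantile normalization. ATG101, which stabilizes ATG13, was the most abundant gene of the complex in both groups, with 63.8, 60.1 and 63.0 TPM in control pools and 52.4, 52.8 and 55.9 TPM in MT-treated pools. Its log2 fold change of -0.21 (limma adjusted p = 0.00154) turned to 0.27 with median centring and to 0.10 with quantile normalization. The ratio of RB1CC1 to ATG101, which is formed within a library, was 0.0592 ± 0.00627 in the control and 0.301 ± 0.0179 in the MT-treated libraries (mean ± SD, n = 3 each).

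The nucleation genes summed to 529.8 ± 3.99 TPM in control and 348 ± 7.36 TPM in MT-treated blastocysts (SD, n = 3 each), while the 9 tested genes were divided into 4 higher and 5 lower, where 61.6% of all tested genes were higher and 34.1% lower. In TPM, PIK3C3 and PIK3R4 fell most, from control means of 164 and 271 to 39.4 and 196, and UVRAG and DAPK1 rose most. All 4 higher genes had passed the filter through the MT-treated libraries alone and, in the TPM as deposited, could only be higher. Among the lower genes BECN1 and PIK3R4, and among the higher genes ATG14 and SH3GLB1, changed side under another scaling. PIK3C3 (ENSBTAG00000026290), the catalytic subunit VPS34 that makes PI3P, had 163, 164 and 166 TPM in control pools and 41.0, 39.5 and 37.6 TPM in MT-treated pools. All 3 MT-treated values lay far under the control values, 4.18 times lower in the means (log2 fold change -2.04, standard error 0.03, limma adjusted p = 9.74e-09). PIK3R4 (ENSBTAG00000020787), its regulatory subunit VPS15, had 272, 274 and 266 TPM in control pools and 205, 189.6 and 193 TPM in MT-treated pools, a log2 fold change of -0.47 (limma adjusted p = 1.31e-05) that became 0.014 and was no longer called with median centring. BECN1 (ENSBTAG00000019914), the shared scaffold Beclin 1, had 41.9, 41.1 and 41.0 TPM in control pools and 36.3, 38.0 and 37.8 TPM in MT-treated pools, and its log2 fold change of -0.14 (limma adjusted p = 0.00227) turned to 0.34 with median centring and 0.12 with quantile normalization. These 3 subunits occur in the same complexes. There were 3.98 ± 0.0703 PIK3C3 transcripts for each BECN1 transcript in the control and 1.05 ± 0.0687 in the MT-treated libraries, and 0.608 ± 0.0129 and 0.201 ± 0.00665 for each PIK3R4 transcript (mean ± SD, n = 3 each). The ranges of the groups did not overlap for either ratio.

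Of the partners that direct the kinase to its tasks, NRBF2 and AMBRA1 fell, UVRAG was listed at 0 in the control, so that its call was fixed by the filter, and the direction for ATG14 depended on the scaling. ATG14 (ENSBTAG00000010795), which sends the kinase to the site of autophagosome formation, had 0.36, 0.43 and 0.41 TPM in control pools and 3.35, 2.87 and 2.96 TPM in MT-treated pools, 7.65 times higher in the means. Its log2 fold change of 1.53 (limma adjusted p = 3.31e-07) turned to -1.04 with quantile normalization. UVRAG (ENSBTAG00000016355), which replaces ATG14 in the complex that acts on endosomes and late autophagosomes, was listed at 0 across the control pools but reached 20.4, 23.4 and 22.9 TPM in MT-treated pools (limma adjusted p = 3.1e-09). In the MT-treated libraries UVRAG was therefore the more abundant of these alternative partners in each library. NRBF2, which dimerizes the ATG14 complex, had 41.8, 44.9 and 44.5 TPM in control pools and 23.0, 22.2 and 24.6 TPM in MT-treated pools, 1.88 times lower in the means (log2 fold change -0.89, limma adjusted p = 3.62e-06). AMBRA1, an activator of BECN1 and a substrate adaptor of a ubiquitin ligase, had 9.36, 8.64 and 8.99 TPM in control pools and 1.80, 1.52 and 1.47 TPM in MT-treated pools. It was 5.63 times lower in the means, and no value of the groups overlapped (log2 fold change -1.95, limma adjusted p = 1.87e-07), and the log2 fold change was -3.06 with quantile normalization.

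DAPK1 (ENSBTAG00000000738), a kinase that can phosphorylate BECN1 and is also known for its part in cell death, had 0.04, 0.01 and 0.01 TPM in control pools and 23.9, 24.7 and 21.9 TPM in MT-treated pools. Its control values are at the rounding of the table, and its log2 fold change on the log2(TPM + 1) scale was 4.59 (standard error 0.05, limma adjusted p = 2.11e-09), or 2.89 with quantile normalization. SH3GLB1, the membrane-bending protein Bif-1 that binds UVRAG, had 0.05, 0.19 and 0.03 TPM in control pools and 1.70, 1.84 and 1.47 TPM in MT-treated pools (limma adjusted p = 5.53e-06), and its log2 fold change of 1.29 turned to -1.09 with quantile normalization. RUBCN, an inhibitor of the UVRAG complex, was listed at 0 in all 6 libraries.

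Of the 5 tested genes for membrane supply and lipid transfer, 4 were higher and 1 was not called, where 61.6% of all tested genes were higher, and 3 of the 4 (ATG9A, ATG2A and ATG2B) had passed the filter through the MT-treated libraries alone. ATG2A (ENSBTAG00000007058), a bridge through which lipids flow into the growing membrane, had 0.50, 0.43 and 0.60 TPM in control pools and 14.6, 14.5 and 13.9 TPM in MT-treated pools (log2 fold change 3.34, standard error 0.05, limma adjusted p = 7.2e-09), and the log2 fold change was 1.02 with quantile normalization. Its paralog ATG2B (ENSBTAG00000012833) was listed at 0 across the control pools but reached 9.62, 10.3 and 9.61 TPM in MT-treated pools (limma adjusted p = 1.67e-09). ATG9A, the scramblase whose vesicles seed the membrane, was listed at 0 across the control pools but reached 5.97, 2.77 and 5.13 TPM in MT-treated pools, with replicate 2 the lowest and a coefficient of variation of 35.9% (limma adjusted p = 5.86e-05). Its call was lost with quantile normalization (limma adjusted p = 0.398). WIPI2, which reads PI3P and recruits the conjugation machinery, had 28.8, 27.4 and 31.3 TPM in control pools and 48.0, 45.9 and 51.4 TPM in MT-treated pools (log2 fold change 0.72, limma adjusted p = 4.46e-05). Its homolog WIPI1 and ZFYVE1, the omegasome marker DFCP1, were listed at 0 in all 6 libraries. VMP1, a scramblase of the endoplasmic reticulum, had 66.3, 65.4 and 63.6 TPM in control pools and 69.0, 66.2 and 68.4 TPM in MT-treated pools. Its groups overlapped and it was not called (log2 fold change 0.06, limma adjusted p = 0.076), but it was called higher without MT-treated replicate 2 (log2 fold change 0.08, limma adjusted p = 0.0371) and with each of the rescalings tried, up to a log2 fold change of 0.54 with median centring.

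**Figure D2:**
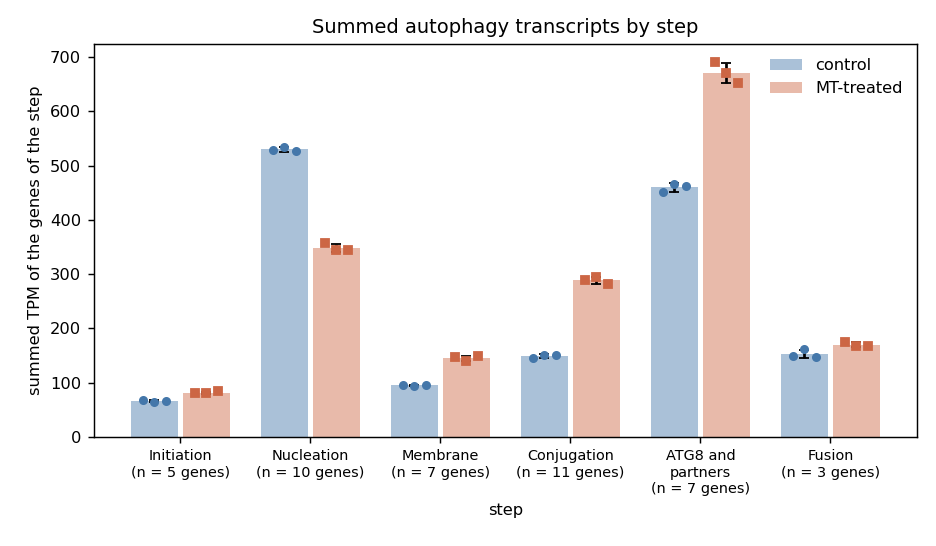
Summed TPM of the genes of each step on the vertical axis, with bars for the mean, error bars for the SD over 3 libraries, and points for the single libraries of the control (circles) and MT-treated (squares) groups. The nucleation genes are the step with a lower sum in the MT-treated libraries, 529.8 against 348 TPM. Within that step PIK3C3 and PIK3R4 fell most, and other genes rose. The conjugation enzymes reach 149 against 288 TPM, a difference that includes ATG10 and the ATG4 genes, at or near 0 in the control.

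The conjugation enzymes had a summed level of 149 ± 4.08 TPM in control and 288 ± 7.10 TPM in MT-treated blastocysts (SD, n = 3 each), and 9 of their 10 tested genes were higher, where 61.6% of all tested genes were. Of the 9, 5 (ATG10 and the 4 ATG4 genes) had passed the filter through the MT-treated libraries alone and, in the TPM as deposited, could only be higher. ATG7, the E1-like enzyme that activates both ATG12 and the ATG8 proteins, had 21.1, 22.8 and 21.8 TPM in control pools and 31.9, 30.2 and 28.3 TPM in MT-treated pools (log2 fold change 0.44, limma adjusted p = 0.000218). ATG3 (ENSBTAG00000009084), the E2-like enzyme for the ATG8 proteins, had 31.0, 31.4 and 30.1 TPM in control pools and 99.3, 100.1 and 97.7 TPM in MT-treated pools. The ATG3 values of the MT-treated libraries were 3.21 times those of the control in the means (log2 fold change 1.65, standard error 0.02, limma adjusted p = 5.74e-09), and the ratio of ATG3 to ATG7 was 1.41 ± 0.0520 in the control and 3.29 ± 0.172 in the MT-treated libraries (mean ± SD, n = 3 each). ATG10, the E2-like enzyme for ATG12, was listed at 0 across the control pools but reached 20.3, 21.2 and 15.7 TPM in MT-treated pools (limma adjusted p = 7.58e-08).

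ATG12, ATG5 and ATG16L1 form the complex that directs ATG8 proteins to the membrane, and ATG5 and ATG12 were higher while ATG16L1 was lower. ATG5 (ENSBTAG00000005400), to which ATG12 is joined, had 5.68, 5.03 and 6.28 TPM in control pools and 25.2, 25.0 and 26.0 TPM in MT-treated pools, 4.48 times higher in the means (log2 fold change 1.99, standard error 0.07, limma adjusted p = 4.07e-07), with a log2 fold change of 1.38 after quantile normalization. ATG12 had 27.8, 29.7 and 31.8 TPM in control pools and 34.5, 37.3 and 34.8 TPM in MT-treated pools, a smaller difference (log2 fold change 0.25, limma adjusted p = 0.00611). ATG16L1 (ENSBTAG00000003928), which binds WIPI2 and the membrane, had 59.0, 62.8 and 61.4 TPM in control pools and 14.2, 17.7 and 16.5 TPM in MT-treated pools. It was the only conjugation gene called lower, 3.78 times in the means (log2 fold change -1.86, standard error 0.08, limma adjusted p = 9.6e-07), and kept that direction under each scaling tried. Within a library, ATG16L1 transcripts outnumbered ATG5 transcripts 10.9 ± 1.42 times in the control, whereas their ratio to ATG5 was 0.636 ± 0.0720 in the MT-treated libraries (mean ± SD, n = 3 each). The ratio of ATG12 to ATG5 was 5.29 ± 0.536 and 1.40 ± 0.0822. The homolog ATG16L2 was listed at 0 across the control pools and at 0.22, 0.22 and 0.22 TPM in MT-treated pools, and was not tested.

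The ATG4 proteases, which cut ATG8 proteins before conjugation and release them from membranes afterwards, were at or near 0 in the control. ATG4D (ENSBTAG00000010727) had 0, 0 and 0.04 TPM in control pools and 39.6, 39.4 and 37.5 TPM in MT-treated pools (limma adjusted p = 6.16e-10). The other three paralogs were listed at 0 in every control library. In the MT-treated libraries ATG4B (ENSBTAG00000015401) had 11.8, 11.5 and 13.1 TPM, ATG4C had 7.82, 7.86 and 7.24 TPM and ATG4A had 3.69, 4.75 and 3.89 TPM, and their adjusted p-values by limma lay between 3.07e-09 and 2.81e-07. With quantile normalization ATG4A was no longer called (limma adjusted p = 0.188). Summed over the 4 paralogs, the ATG4 level was 0, 0 and 0.040 TPM in control pools and 62.9, 63.4 and 61.7 TPM in MT-treated pools, of which ATG4D made up 61.9 ± 1.10% (SD, n = 3).

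The ATG8 genes were divided by subfamily, with MAP1LC3A and MAP1LC3B lower and GABARAP and GABARAPL2 higher in MT-treated blastocysts, where 34.1% of all tested genes were lower and 61.6% higher. GABARAPL1, also higher, had passed the filter through the MT-treated libraries alone and, in the TPM as deposited, could only be higher. A further LC3 gene, MAP1LC3C, was listed at 0 in all 6 libraries. MAP1LC3B (ENSBTAG00000011632), the LC3 protein most used as an autophagosome marker, had 150.0, 151 and 144 TPM in control pools and 88.3, 90.7 and 86.3 TPM in MT-treated pools. MAP1LC3A (ENSBTAG00000006135) had 114, 116 and 126 TPM in control pools and 80.6, 73.6 and 70.7 TPM in MT-treated pools. Both fell, with log2 fold changes of -0.74 (standard error 0.03, limma adjusted p = 6.56e-07) and -0.66 (standard error 0.06, limma adjusted p = 6.07e-05), and stayed lower and called under each scaling tried, though by less. The log2 fold changes were -0.45 for MAP1LC3B and -0.38 for MAP1LC3A with quantile normalization, and -0.26 and -0.18 with median centring (limma adjusted p = 0.0288 for MAP1LC3A). The GABARAP subfamily acts mainly in later growth and closure of the autophagosome. GABARAPL2 (ENSBTAG00000006550), also called GATE-16, had 48.7, 53.3 and 51.8 TPM in control pools and 217, 203 and 203 TPM in MT-treated pools, 4.05 times higher in the means (log2 fold change 1.998, standard error 0.04, limma adjusted p = 3.3e-08). GABARAP (ENSBTAG00000014883) had 68.1, 73.7 and 69.9 TPM in control pools and 180.1, 179 and 171 TPM in MT-treated pools, 2.50 times higher in the means (log2 fold change 1.31, standard error 0.04, limma adjusted p = 1.15e-07). GABARAPL1 was listed at 0 across the control pools but reached 12.8, 13.2 and 12.3 TPM in MT-treated pools (limma adjusted p = 1.12e-09).

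Summed over the 5 genes with a level above 0, ATG8 transcripts reached 381, 394 and 392 TPM in control pools and 578, 559 and 543 TPM in MT-treated pools. The GABARAP subfamily made up 30.7, 32.2 and 31.1% of that sum in the control and 70.8, 70.6 and 71.1% in the MT-treated libraries, so LC3 genes held the majority in each control library and GABARAP genes in each MT-treated library. These shares are formed within a library and do not change when all its values are multiplied by a constant. The most abundant ATG8 gene was MAP1LC3B in each control library (38.1 ± 1.37% of the sum, n = 3) and GABARAPL2 in each MT-treated library (37.1 ± 0.627%, n = 3). The ratio of GABARAPL2 to MAP1LC3B was 0.346 ± 0.0190 in the control and 2.35 ± 0.107 in the MT-treated libraries (mean ± SD, n = 3 each).

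**Figure D3:**
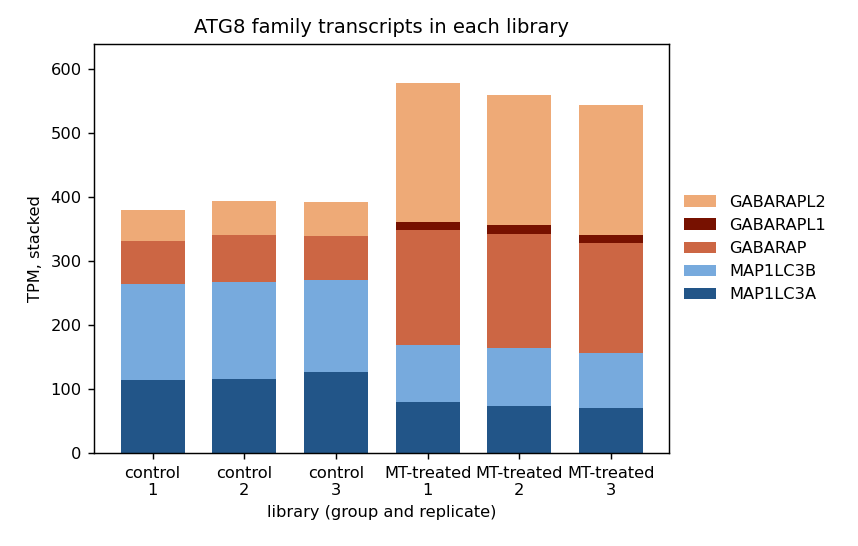
TPM of the 5 ATG8 genes with a level above 0, stacked, on the vertical axis for each of the 6 libraries, with LC3 genes in blue and GABARAP genes in orange and red. The stacks reach 381 to 394 TPM in control pools and 543 to 578 TPM in MT-treated pools, and the blue part shrinks from 264 to 270 TPM in the control to 157 to 169 TPM.

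SQSTM1 (ENSBTAG00000015591), the cargo receptor p62 that binds ubiquitin and ATG8 proteins and is itself degraded by autophagy, had 70.4, 71.8 and 70.3 TPM in control pools and 112, 111 and 109 TPM in MT-treated pools. It rose with little spread between replicates (log2 fold change 0.63, standard error 0.02, limma adjusted p = 1.75e-07). TP53INP2, which carries LC3 out of the nucleus, was listed at 0 across the control pools and at 0.03, 0 and 0.18 TPM in MT-treated pools, and was not tested.

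Of the 3 SNARE genes for fusion with the lysosome, 1 was higher, 1 lower and 1 not called, where 61.6% of all tested genes were higher and 34.1% lower, and the higher gene, STX17, had passed the filter through the MT-treated libraries alone. STX17 (ENSBTAG00000008016), the syntaxin of the closed autophagosome, was listed at 0 across the control pools but reached 19.8, 16.6 and 16.4 TPM in MT-treated pools (limma adjusted p = 1.35e-08). SNAP29, which bridges STX17 to its lysosomal partner, had 23.2, 22.2 and 22.4 TPM in control pools and 12.6, 12.8 and 14.1 TPM in MT-treated pools, 1.72 times lower in the means (log2 fold change -0.74, limma adjusted p = 8.23e-06), and the log2 fold change was -1.81 with quantile normalization and -0.26 with median centring. VAMP8, that partner, had 126, 139 and 125 TPM in control pools and 143, 137 and 137 TPM in MT-treated pools. The control values of VAMP8 spanned those of MT-treated replicates 2 and 3, and it was not called (log2 fold change 0.09, limma adjusted p = 0.092). Control replicate 2 was the highest control value, and without it VAMP8 was called higher (log2 fold change 0.14, limma adjusted p = 0.00402), as it was with each of the rescalings tried, up to 0.57 with median centring. The ratio of VAMP8 to SNAP29 was 5.77 ± 0.446 in the control and 10.6 ± 0.788 in the MT-treated libraries (mean ± SD, n = 3 each).

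**Figure D4:**
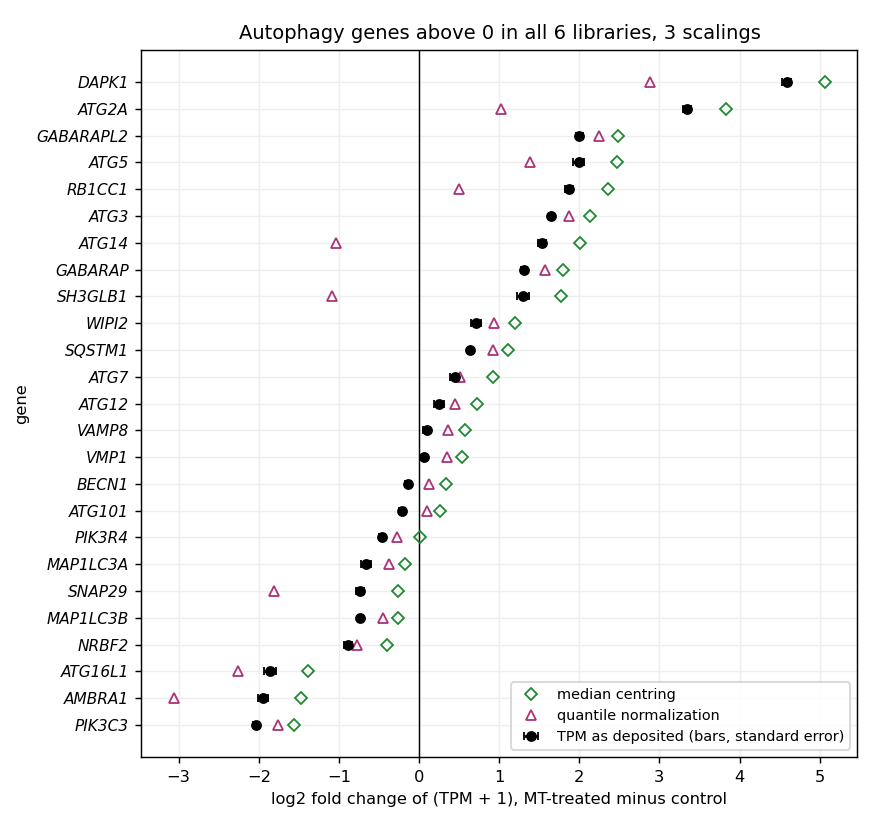
Log2 fold change of TPM + 1, MT-treated minus control, on the horizontal axis for the 25 autophagy genes above 0 in all 6 libraries, with black points and standard errors for TPM as deposited and open marks for 2 other scalings. PIK3C3, AMBRA1 and ATG16L1 are the lowest black points, at log2 fold changes of -2.04, -1.95 and -1.86, BECN1 and ATG101 change side with both scalings, ATG14 and SH3GLB1 with quantile normalization, and PIK3R4 with median centring.

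Replicates of the autophagy genes lay close together. Over the 20 genes that reached 5 TPM in all control libraries, the median coefficient of variation was 3.49%, from 0.724% for PIK3C3 to 11.0% for ATG5, and over the 31 such genes in the MT-treated libraries it was 3.90%, from 1.13% for SQSTM1 to 15.6% for ATG10. All genes at that level had medians of 2.69% and 4.34%. How reads shared by near-identical copies were assigned is not given in the sources used here, so the division of reads between paralogs and retrocopies, as for the ATG8 genes, is uncertain. For a single gene, an exact two-sided permutation test of 3 libraries against 3 cannot give a p-value under 0.1, so sums, shares and ratios are given with their spread and no test, and the calls above rest on the spread that limma shares across genes.

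Other genes of the pathway were read from a list of 59 written from general knowledge, of which 57 were in the table and 49 were tested. Of these 49, 30 were higher, 13 lower and 6 not called, where 61.6% of all tested genes were higher and 34.1% lower. A total of 22 of the 30 had passed the filter through the MT-treated libraries alone, WDFY3, VPS33A and TFEB among them, and so had to differ in the TPM as deposited. Of the 48 that reached 1 TPM in every MT-treated library, 18 were listed at 0 in every control library, against 36.1% of all such genes. The median log2 fold change of the 49 genes was 1.56, against 1.12 over all tested genes, and both medians include genes at or near 0 in the control. Fitted among genes above 0 in all 6 libraries, 9 of 28 were higher, TFEB among them, and 13 lower. Of all such genes 40.6% were higher and 52.4% lower, with a median log2 fold change of -0.19. Among 15 tested receptor genes, 9 were higher and 4 lower. Of the 9, all but BNIP3L, FKBP8 and TEX264 had passed the filter through the MT-treated libraries alone. WDFY3, an adaptor for protein aggregates, was listed at 0 across the control pools but reached 37.3, 39.8 and 33.2 TPM in MT-treated pools (limma adjusted p = 3.58e-09), and CCPG1, a receptor for the endoplasmic reticulum, dropped to 7.84 ± 0.0985 TPM from a control mean of 31.7 ± 1.55 (SD, n = 3 each, log2 fold change -1.89, limma adjusted p = 3.51e-08). Among 12 tested genes of further machinery, 8 were higher and 4 lower. Of the 8, ATG9B, EPG5, TRAPPC8 and MTMR3 had passed the filter through the MT-treated libraries alone. WDR45, a PI3P-binding relative of the WIPI proteins, climbed to 56.3 ± 0.855 TPM from a control mean of 1.44 ± 0.0755 (SD, n = 3 each, log2 fold change 4.55, limma adjusted p = 6.8e-10), and TMEM41B, a scramblase that works with VMP1, was at 14.0 ± 0.721 TPM against a control mean of 39.0 ± 1.93 (SD, n = 3 each, log2 fold change -1.41, limma adjusted p = 4.72e-07).

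Among 11 tested tethers and fusion partners, 7 were higher and 3 lower, where 61.6% of all tested genes were higher and 34.1% lower. Of the 7, all but VPS16 had passed the filter through the MT-treated libraries alone. VPS33A, a subunit of the HOPS tether, was listed at 0 across the control pools but reached 17.3, 17.0 and 16.2 TPM in MT-treated pools (limma adjusted p = 8.24e-10), whereas VPS18, another subunit, was at 1.06 ± 0.0681 TPM against a control mean of 5.49 ± 0.493 (SD, n = 3 each, log2 fold change -1.66, limma adjusted p = 6.25e-07). Among 11 tested regulators, 6 were higher and 2 lower, also to be read against those shares. All 6 higher regulators, TFEB among them, had passed the filter through the MT-treated libraries alone. In the TPM as deposited they could only be higher. TFEB (ENSBTAG00000012384), a transcription factor known for activating autophagy and lysosome genes, had 0.37, 0.39 and 0.28 TPM in control pools and 106, 82.3 and 102 TPM in MT-treated pools. Every MT-treated value was far above the control values (log2 fold change 6.18, standard error 0.10, limma adjusted p = 1.01e-08). Its relative TFE3 had 17.5, 17.4 and 17.3 TPM in control pools and 12.3, 13.1 and 12.9 TPM in MT-treated pools (log2 fold change -0.42, limma adjusted p = 2.99e-05), and its log2 fold change turned to 0.059 with median centring. With quantile normalization the log2 fold changes of these further genes were -3.37 for CCPG1, 3.48 for WDR45, -2.17 for TMEM41B, -2.84 for VPS18, 4.73 for TFEB and -1.67 for TFE3.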

How the data were processed

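RNA-seq libraries were made from pools of 3 bovine blastocysts, 3 control and 3 MT-treated, from independent in vitro production runs per the study's methods. Oocytes of a run were pooled and divided among the treatments, so each run held both groups, but the labels do not tie replicate numbers to runs. The labels name a TruSeq kit and the study's methods Smart-seq2, and the genome build is ARS-UCD1.2 in the labels and a later release in the methods, so no coordinates are given. Per the labels and methods, reads were filtered with fastp, checked with FastQC 0.11.9, aligned with STAR 2.7.9a and counted with featureCounts of Subread 1.6.3. The authors deposited 1 table of TPM per gene, rounded to 0.01. How counts became TPM is not given in the sources used here. The study tabulates sequencing depth in a supplement that was not used here, so no counting interval is printed. Sums over the table were 936783 to 937698 TPM in the control and 912686 to 913707 TPM in the MT-treated libraries, and 0 columns belonged to other samples.

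Values were analysed as log2(TPM + 1), on which a fold change understates the change of low genes, for genes that reached 1 TPM in 3 or more libraries. MT-treated and control libraries were compared by limma 3.58.1 in R 4.3.3 (linear model, empirical Bayes with trend, Benjamini-Hochberg over 11953 genes, threshold 0.05), which was tested on simulated data. Python 3.11.15, pandas 2.3.3 and matplotlib 3.10.9 made sums, ratios and plots. The autophagy genes and the other lists were chosen with earlier results of these data known. Each autophagy gene is named, and of the further pathway genes the called gene with the highest and the one with the lowest log2 fold change in each of the 4 groups. BNIP3, C9orf72 and AMH did not match a symbol and were not analysed here. The alternatives tried were a smaller pseudocount (0.1), omitting the filter or raising it to 5 TPM, only genes above 0 in all 6 libraries, rescaling every library to 1 common TPM sum, quantile normalization, median centring, no trend, a replicate block and leaving out each library in turn. Leaving out libraries for the family sums and shares was added after the data were seen.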

Additional observations from a re-analysis of the deposited data

How the results depend on the processing

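The filter and the scaling moved the counts most. With only genes above 0 in all 6 libraries, which leaves fewer genes to test, 13 of 25 autophagy genes were higher (9 at least 2-fold), 9 of 28 further pathway genes (6 at least 2-fold) and 2814 of all 6925 genes (1539 at least 2-fold). Of the 13, ATG14, SH3GLB1, DAPK1 and ATG2A had still passed the filter through the MT-treated libraries alone. With quantile normalization, 12 autophagy genes were at least 2-fold higher and 6 at least 2-fold lower, 17 further pathway genes were at least 2-fold higher, and of all tested genes 3085 were at least 2-fold higher and 3111 at least 2-fold lower. Among the genes given above with a fold change, reversal was seen for ATG101 (0.10), BECN1 (0.12), ATG14 (-1.04) and SH3GLB1 (-1.09) with quantile normalization, and for ATG101 (0.27), BECN1 (0.34), PIK3R4 (0.014) and TFE3 (0.059) with median centring. Beyond these, with median centring the lower genes RAB1A, FUNDC1 and TAX1BP1 of the further list, named after their values were seen, also turned positive, and with quantile normalization 2 lower genes of that list turned positive and 4 higher ones negative. The cause was not tested. Rescaling every library to 1 common TPM sum put the summed ATG8 level at 415 TPM in the control and 614 TPM in the MT-treated group. Leaving out each library in turn gave 24 to 25 higher and 10 lower autophagy genes. The replicate numbers were not taken to pair the libraries, since the labels do not tie them to runs. The correlations of deviations of same-numbered libraries were -0.0115, -0.000679 and 0.0588, the last being the highest of all pairs, and not every library correlated best with its own number. They cannot decide whether libraries were paired, because deviations from a mean of 3 libraries are tied to one another. With a replicate block, 24 autophagy genes were higher and 10 lower, and 7379 of all tested genes were higher and 4082 lower. The 3 libraries in each group, the depth, not used here, and a call rate of 95.7% limit what a call says about a single gene.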
